A study of Mus musculus with 9 samples.

Results

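The genes described here are the receptor 4-1BB (Tnfrsf9), its ligand (Tnfsf9), 5 further receptors of the TNF family (Tnfrsf1a, Tnfrsf1b, Tnfrsf4, Tnfrsf18 and Tnfrsf12a) and the adaptors Traf1 and Traf2. They were represented by all probe sets assigned to these 9 symbols alone, 14 of the 45101 probe sets on the arrays. The set was chosen by the measured difference between Ring1b_KD and Control, in which Tnfrsf9 had the largest rise of all genes. Its values against Control there, and those of the other members, are therefore given as a description, without a test.

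RNA came from L8057, a mouse megakaryocytic cell line, in 3 groups of 3 one-colour arrays. CBFb_KD cells carried a lentiviral shRNA against CBFb, the partner subunit of RUNX transcription factors. Ring1b_KD cells carried one against Ring1b (Rnf2), the ubiquitin ligase of Polycomb repressive complex 1. Control cells carried an empty vector by their sample labels, although the series' design line speaks of shRNA for the control too. All 3 groups received puromycin together with TPA, a phorbol ester that drives maturation, at 50 nM. This began 48 h after the lentivirus, and harvest followed a further 72 h on, so the TPA exposure was 3 days. Every value is thus from phorbol-treated cells. The series calls the arrays biological triplicates, but the labels do not say whether infections were separate, so the p-values below reflect array-to-array spread that may be technical. How many hairpins were used against each target is not given in the sources used here.

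TNF receptors are trimeric surface proteins engaged by trimeric ligands of the TNF family. Receptors without a death domain, such as 4-1BB, OX40 and GITR, recruit TRAF adaptors, which carry ubiquitin ligases of the cIAP type and feed into NF-kB and MAP kinase pathways. 4-1BB is best known as a costimulatory receptor of activated T cells and NK cells, and its ligand as a protein of antigen-presenting cells. TNF itself acts through TNFR1 and TNFR2.

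The series as a whole separated by its labels. Cbfb averaged 9.19 ± 0.11 (SD, n = 3, log2 signal) in CBFb_KD, against 12.36 ± 0.12 in Control, and Rnf2 averaged 8.98 ± 0.08 in Ring1b_KD, against 10.65 ± 0.08 in Control. Arrays of 1 group correlated at 0.995 to 0.997 over all tested probe sets and arrays of different groups at 0.987 to 0.994. The deposited array medians were 6.54 to 6.59 in CBFb_KD, 6.61 to 6.65 in Ring1b_KD and 6.51 to 6.58 in Control. The Ring1b_KD arrays thus had the highest medians before quantile normalization, and values under other scalings are given below wherever this moved a member. Of 14 measured megakaryocyte markers 8 lay above the median gene, and Pf4, Gata1, Itga2b and Fli1 in the brightest decile, while Nfe2 and Vwf were dim in every group. Of these markers 6 were called higher in CBFb_KD and Vwf lower in Ring1b_KD, where 12.8% and 10.1% of all genes were called. The summed linear signal of these markers was 44240 to 44880 in CBFb_KD, 22230 to 37940 in Ring1b_KD and 28660 to 35020 in Control. With 3 arrays a group, the number of arrays limits the precision of every value below.

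Tnfrsf9 encodes 4-1BB (chromosome 4), and RefSeq gives it a pair of start sites on GRCm38.p6, 7844 bases apart. Promoter windows, from 250 bases before to 50 after a start site, were found for 8 of the 9 members and numbered 9 in all. Those of Tnfrsf9 and Tnfrsf18 are printed because these genes had the largest differences in Ring1b_KD. Capitals mark matches, on either strand, to the RUNX letters TGTGGT, to the variant TGCGGT, or to the 10-base NF-kB consensus. The windows are at chr4:150919905-150920204, chr4:150927749-150928048 and chr4:156026072-156026371, all on the plus strand and written 5′ to 3′.
Tnfrsf9 upstream start: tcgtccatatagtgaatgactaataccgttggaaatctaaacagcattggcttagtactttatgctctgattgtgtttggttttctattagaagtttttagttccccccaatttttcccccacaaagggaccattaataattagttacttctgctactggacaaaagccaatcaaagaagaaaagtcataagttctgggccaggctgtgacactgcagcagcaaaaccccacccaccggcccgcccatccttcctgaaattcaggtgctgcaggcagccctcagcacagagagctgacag
Tnfrsf9 downstream start: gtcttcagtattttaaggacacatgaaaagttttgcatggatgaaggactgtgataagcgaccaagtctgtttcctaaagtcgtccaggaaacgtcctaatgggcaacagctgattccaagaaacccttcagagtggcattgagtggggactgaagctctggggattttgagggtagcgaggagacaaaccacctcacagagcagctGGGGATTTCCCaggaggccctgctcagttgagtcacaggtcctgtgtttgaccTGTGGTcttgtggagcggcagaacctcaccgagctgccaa
Tnfrsf18: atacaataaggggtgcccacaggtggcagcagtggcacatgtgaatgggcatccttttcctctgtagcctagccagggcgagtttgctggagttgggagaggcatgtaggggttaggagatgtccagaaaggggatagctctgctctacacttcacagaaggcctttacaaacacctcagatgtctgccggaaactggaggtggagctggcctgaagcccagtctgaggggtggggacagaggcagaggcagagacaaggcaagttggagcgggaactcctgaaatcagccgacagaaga
The downstream Tnfrsf9 window held overlapping NF-kB matches in its bases -43 to -33 and a TGTGGT at bases 11 to 16 from the start site, which do not overlap each other. The upstream Tnfrsf9 window and the Tnfrsf18 window held none of these letters. Of the other 6 windows, that of Traf1 held TGTGGT and that of Traf2 held TGCGGT. Among 32851 windows of the same length, 16.8% held TGTGGT, 6.45% TGCGGT and 8.46% the NF-kB consensus. A match in these letters is a description of the sequence and not a bound site.

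The 2 Tnfrsf9 probe sets with the higher signal were far above Control in all Ring1b_KD arrays. Probe set 1460469_at had log2 signals of 9.35, 10.26 and 9.58 in CBFb_KD, 12.79, 12.32 and 12.79 in Ring1b_KD, and 9.02, 9.27 and 8.98 in Control. The Ring1b_KD arrays lay well clear of all others, and the CBFb_KD arrays lay just above Control. The difference of means between Ring1b_KD and Control was 3.54 (log2, SE 0.20), or 11.6-fold. It was the highest rise among 18193 genes, ahead of Gzmb at 2.90, which is the property for which the set was chosen. Over all alternative scalings, fits and array omissions the difference stayed between 3.38 and 3.69.

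Probe set 1428034_a_at of Tnfrsf9 had log2 signals of 7.20, 8.54 and 7.95 in CBFb_KD, 11.04, 11.03 and 11.26 in Ring1b_KD, and 6.59, 7.29 and 6.79 in Control. Ring1b_KD again stood apart, by 4.21 from Control (log2, SE 0.27), or 18.6-fold. CBFb_KD overlapped Control, since its array 1 lay below Control array 2. Array 2 was the highest in CBFb_KD and in Control on both probe sets, whereas in Ring1b_KD array 2 was the lowest on both. The third probe set, 1421481_at, was flat. It had log2 signals of 5.42, 5.02 and 4.95 in CBFb_KD, 4.96, 5.02 and 5.09 in Ring1b_KD, and 4.98, 4.87 and 4.99 in Control, and its mean lay above only 21.9% of probe set means. The 3 probe sets assigned to Tnfrsf9 thus disagree, the dim one lying level in all groups. Which transcript parts the 3 probe sets read was not analysed here.

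**Figure D1:**
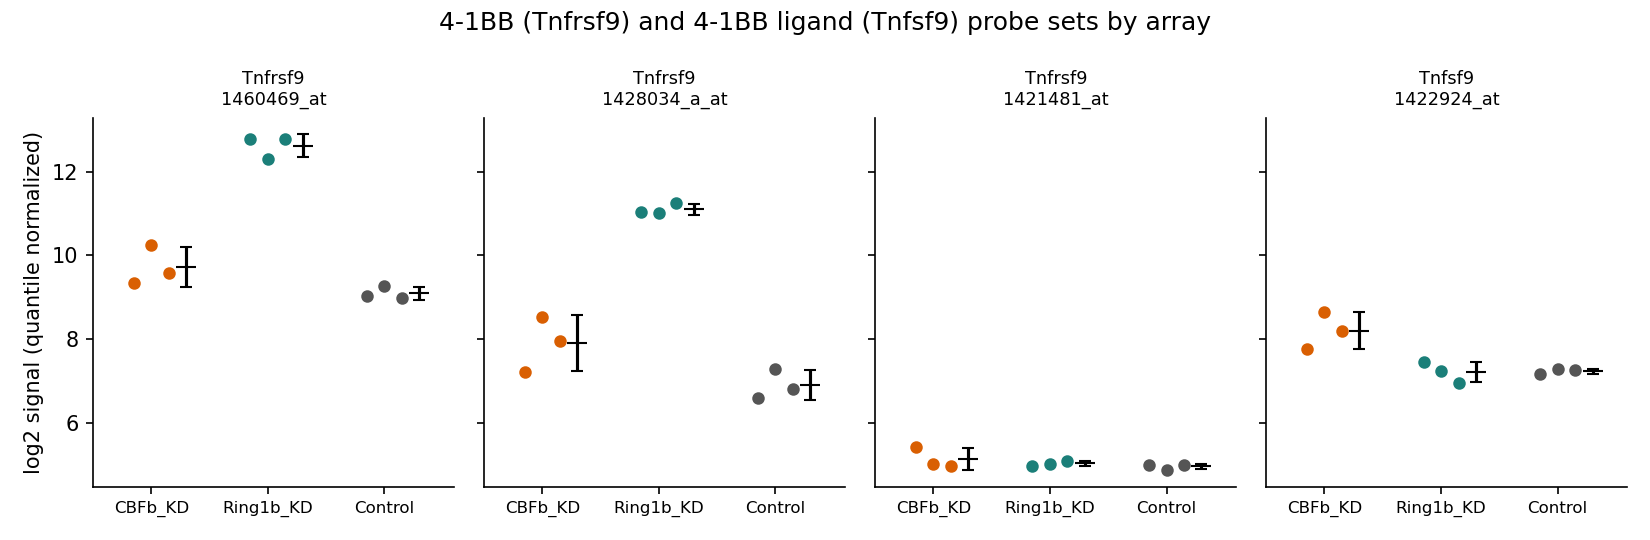
Log2 signal (quantile normalized, vertical axis) of the 3 Tnfrsf9 probe sets and the Tnfsf9 probe set in CBFb_KD, Ring1b_KD and Control. Points are arrays, and the bar beside them is the mean ± SD (n = 3). Tnfrsf9 is highest in Ring1b_KD on 1460469_at and 1428034_a_at and flat near 5 on 1421481_at, while Tnfsf9 is highest in CBFb_KD.

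Tnfrsf9 in CBFb_KD is likewise given without a p-value, since the Control arrays also entered the difference that chose the gene. On 1428034_a_at the difference between CBFb_KD and Control was 1.01 (log2, SE 0.27, 2.01-fold), and it ran from 0.68 to 1.35 over the alternatives, with the lowest value when CBFb_KD array 2 was omitted. On 1460469_at it was 0.64 (SE 0.20, 95% interval 0.21 to 1.07), with a range of 0.37 to 0.83, and the 3 arrays of each group did not overlap. On the dim probe set it was 0.18. The difference between the knockdowns, CBFb_KD minus Ring1b_KD, was -2.90 and -3.21 on the brighter probe sets.

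Tnfsf9, the gene of the 4-1BB ligand (chromosome 17), rose in the other knockdown. Its probe set had log2 signals of 7.76, 8.65 and 8.20 in CBFb_KD, 7.45, 7.23 and 6.95 in Ring1b_KD, and 7.17, 7.27 and 7.25 in Control. All CBFb_KD arrays lay above all others, and Ring1b_KD spread on either side of Control. Tnfsf9 rose 1.96-fold in CBFb_KD against Control (log2 difference 0.97, SE 0.18, limma adjusted p = 0.00509), and the call held in every alternative, with adjusted p from 0.000702 to 0.0243. The Ring1b_KD difference from Control was -0.02 (SE 0.18). Between the knockdowns Tnfsf9 was 1.99-fold higher in CBFb_KD (log2 difference 0.99, limma adjusted p = 0.00368, range 0.000573 to 0.0183 over the alternatives). CBFb_KD array 1 was the lowest of its group for Tnfsf9 and for both brighter Tnfrsf9 probe sets, and array 2 the highest. Of 14 measured megakaryocyte markers 6 were also called higher in CBFb_KD, where 6.62% of all genes were called higher. They were Gp9 (2.32), Treml1 (1.82), Gp5 (1.68), Ppbp (1.62), Itga2b (1.04) and Fli1 (0.62). Pf4, the brightest, was not called (0.32, limma adjusted p = 0.332). The part of these markers in the Tnfsf9 difference was not tested. In these bulk samples, fewer cells of a kind and less RNA per cell cannot be told apart.

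The nearest relatives of 4-1BB among the members, all on chromosome 4, showed smaller differences. Tnfrsf18 encodes GITR, a costimulatory receptor of T cells. It had log2 signals of 7.39, 7.60 and 7.43 in CBFb_KD, 8.10, 8.10 and 8.49 in Ring1b_KD, and 7.504, 7.557 and 7.519 in Control. The Ring1b_KD arrays lay above all others, and those of CBFb_KD lay around Control. The difference between Ring1b_KD and Control was 0.70 (log2, SE 0.11, 1.63-fold), and it was 0.69 as deposited and 0.61 with each array centred on its median. The difference of CBFb_KD from Control was -0.05 (95% interval -0.29 to 0.18, limma adjusted p = 0.87). Between the knockdowns, Tnfrsf18 was lower in CBFb_KD by a log2 difference of -0.76 (SE 0.11, limma adjusted p = 0.000736), a call that held in every alternative with adjusted p from 0.000311 to 0.00531.

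Tnfrsf4 encodes OX40, another costimulatory receptor of T cells, and lies next to Tnfrsf18. It had log2 signals of 8.72, 8.56 and 8.62 in CBFb_KD, 8.86, 8.89 and 9.12 in Ring1b_KD, and 8.73, 8.58 and 8.62 in Control. Ring1b_KD lay above the other groups, by 0.31 from Control (SE 0.09), but by 0.24 as deposited and by 0.15 with median centring. CBFb_KD differed from Control by -0.01 (limma adjusted p = 0.973). Between the knockdowns the difference was -0.32 (limma adjusted p = 0.039). That call was lost as deposited (-0.23, limma adjusted p = 0.103), with median centring (-0.15, limma adjusted p = 0.298), and without CBFb_KD array 2 or 3, Ring1b_KD array 2 or 3 or any 1 of the Control arrays.

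The TNF receptors themselves followed. Tnfrsf1a encodes TNFR1, the death domain receptor for TNF. Its log2 signals were 9.42, 9.09 and 9.06 in CBFb_KD, 9.43, 9.59 and 9.71 in Ring1b_KD, and 9.27, 8.90 and 9.21 in Control. Ring1b_KD lay above the other arrays, but CBFb_KD array 1 came close to its lowest. Ring1b_KD differed from Control by 0.45 (SE 0.12, 0.36 as deposited and 0.27 with median centring), and CBFb_KD by 0.06 (limma adjusted p = 0.876). Between the knockdowns the difference of -0.39 missed the threshold (95% interval -0.66 to -0.12, limma adjusted p = 0.0585), and it passed without CBFb_KD array 1 (-0.51, limma adjusted p = 0.0184) or Control array 2, with low values filtered (0.0396), with 1 probe set per gene (0.0397) and under a replicate block (0.0482). Tnfrsf1b encodes TNFR2, which signals through TRAF2. Its 2 probe sets had differences from Control of -0.21 and -0.09 in CBFb_KD (limma adjusted p = 0.304 and 0.711) and of 0.00 and 0.10 in Ring1b_KD. After quantile normalization each knockdown overlapped Control on both. There the CBFb_KD arrays of 1418099_at, at most 6.202, lay just below those of Ring1b_KD, at least 6.215, with a difference of -0.19 (limma adjusted p = 0.233). As deposited, the Ring1b_KD arrays of 1418099_at, at least 6.278, lay above those of Control, at most 6.206. The Ring1b_KD difference of 1418099_at from Control reached 0.19 over the alternatives.

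Tnfrsf12a encodes Fn14, the receptor for TWEAK. Its main probe set had log2 signals of 9.19, 9.23 and 9.23 in CBFb_KD, 9.18, 9.07 and 9.20 in Ring1b_KD, and 9.002, 9.071 and 8.87 in Control. Both knockdowns lay above Control, though the lowest Ring1b_KD array was level with the highest Control array at this rounding. The difference from Control was 0.24 in CBFb_KD (SE 0.08, limma adjusted p = 0.104) and 0.17 in Ring1b_KD, which was 0.09 as deposited and 0.00 with median centring. The second Tnfrsf12a probe set had a difference of 0.19 in CBFb_KD (limma adjusted p = 0.272) and 0.16 in Ring1b_KD, which vanished with median centring.

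No TRAF probe set passed a test. Traf1, itself a known NF-kB target that binds the tail of 4-1BB, had log2 signals of 5.47, 5.64 and 5.42 in CBFb_KD, 5.24, 5.53 and 5.31 in Ring1b_KD, and 5.37, 5.31 and 5.15 in Control on 1423602_at. CBFb_KD lay above Control there, with a difference of 0.23 (95% interval 0.02 to 0.44, limma adjusted p = 0.197). Ring1b_KD overlapped Control (0.08, and up to 0.15 over the alternatives). The other Traf1 probe set had differences of -0.03 in CBFb_KD (limma adjusted p = 0.902) and 0.00 in Ring1b_KD (up to 0.09 over the alternatives). Traf2, the adaptor that brings cIAP proteins to these receptors, had log2 signals of 9.24, 9.03 and 9.19 in CBFb_KD, 9.29, 9.21 and 9.36 in Ring1b_KD, and 9.26, 9.24 and 9.44 in Control. CBFb_KD lay just below Control (-0.16, limma adjusted p = 0.394) and Ring1b_KD overlapped it (-0.03, but -0.13 as deposited and -0.21 with median centring). No difference of a TRAF probe set from Control exceeded 0.23 in either knockdown.

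**Figure D2:**
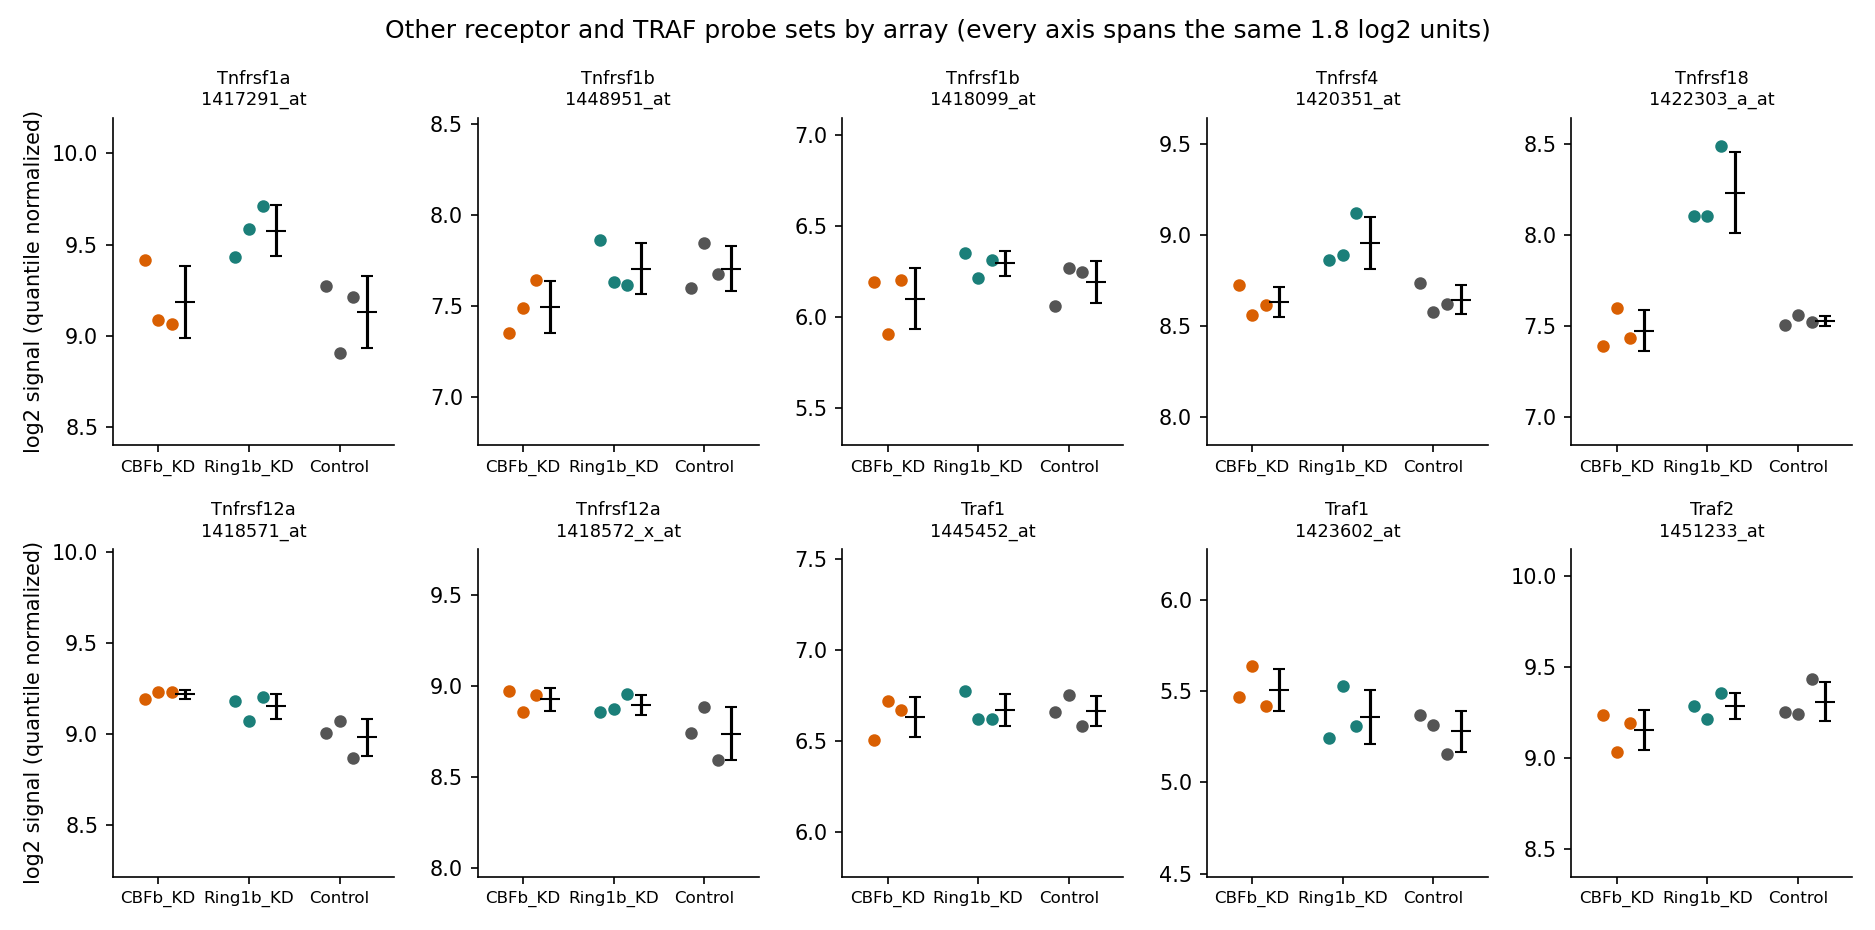
Log2 signal (quantile normalized, vertical axes, each spanning the same width) of the 10 other receptor and TRAF probe sets in CBFb_KD, Ring1b_KD and Control. Points are arrays, bars mean ± SD (n = 3). Tnfrsf18 is the member whose Ring1b_KD arrays, at 8.10 to 8.49, stand farthest above the others.

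Over the 14 probe sets, 2 were called higher and 0 lower in CBFb_KD against Control, 14.3% where limma called 9.65% of all probe sets at an adjusted p under 0.05, 4.9% higher and 4.76% lower. The called probe sets were Tnfsf9 and Tnfrsf9 1428034_a_at, whose Control arrays helped to choose the gene, so that outside Tnfrsf9 the count was 1 of 11. Without CBFb_KD array 2 or 3, without Control array 1 or 3, or with a robust variance, 1 of the 14 was called. With CBFb_KD array 1 omitted, or low values filtered, 3 were. Each of these changes was in a Tnfrsf9 probe set, which is given as a description, while Tnfsf9 was called throughout. Arrays of the groups did not overlap for 5 of the 14 (26.2% of all probe sets, 11.7% higher and 14.5% lower), namely Tnfrsf9, Tnfsf9, Tnfrsf12a and Traf1 higher and Traf2 lower, and for 3 as deposited or with median centring. In Ring1b_KD against Control, 6 did not overlap, all higher, where 29.4% of all probe sets did not overlap, 14.1% higher and 15.3% lower. That contrast chose the set and nothing is read from the count. Limma called 8.48% of all probe sets there, 3.77% higher and 4.71% lower. The members there were both brighter Tnfrsf9 probe sets, Tnfrsf18, Tnfrsf1a, Tnfrsf4 and Tnfrsf12a. Of the 11 probe sets other than those of Tnfrsf9, 3 were called between the knockdowns (13.4% of all probe sets, 7.07% higher and 6.33% lower), Tnfsf9 higher and Tnfrsf18 and Tnfrsf4 lower in CBFb_KD. Arrays of the 2 knockdowns did not overlap for 7 of all 14 (29.7% of all probe sets, 14.3% higher and 15.4% lower). The median log2 difference over the 14 was 0.12 in CBFb_KD and 0.13 in Ring1b_KD, against -0.01 and 0.01 over all probe sets. Both comparisons use the same Control arrays, and the comparison of the knockdowns uses the Ring1b_KD arrays that chose the set.

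**Figure D3:**
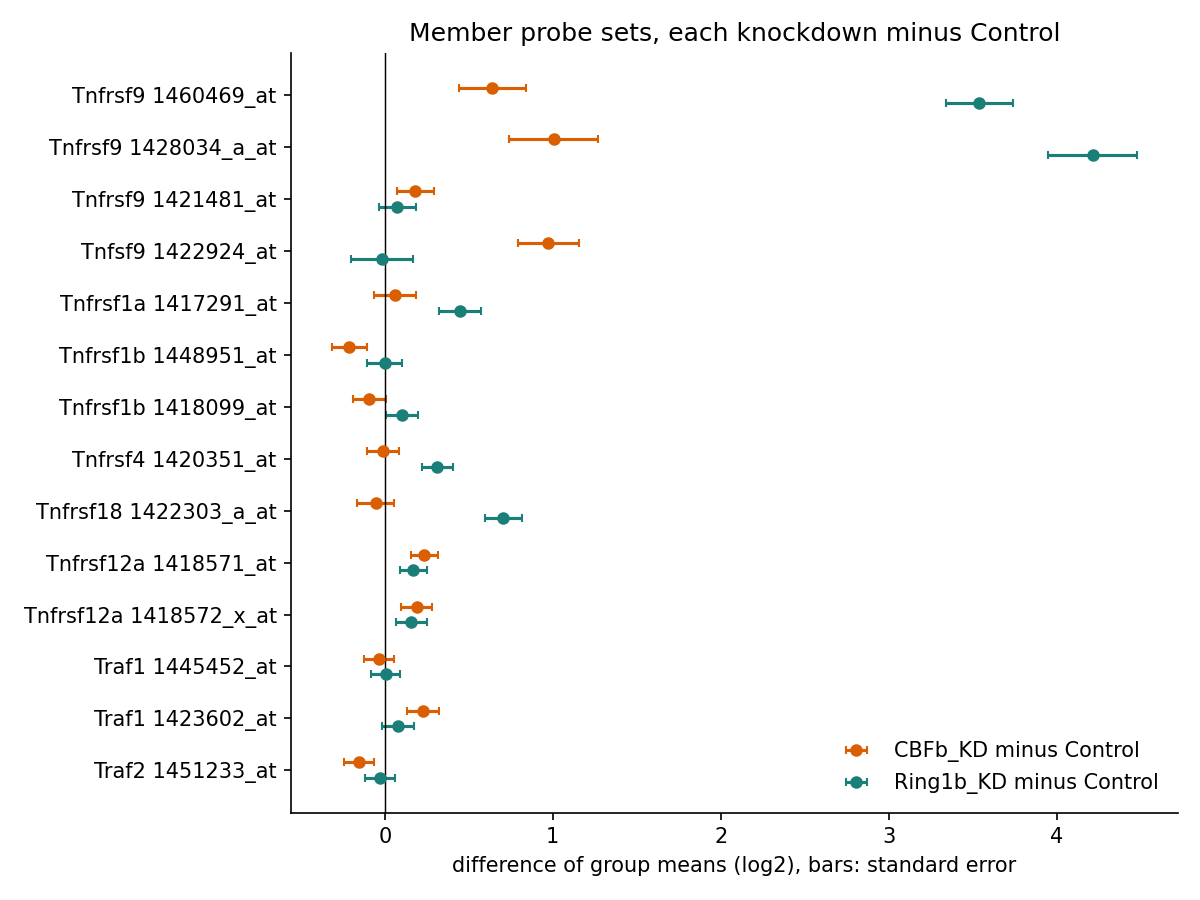
Difference of group means from Control (log2, horizontal axis) for the 14 member probe sets in CBFb_KD and Ring1b_KD. Points are differences and bars standard errors from the limma fit. In Ring1b_KD 2 Tnfrsf9 probe sets reach 3.54 and 4.21 and Tnfrsf18 0.70, whereas Tnfsf9 is at 0.97 in CBFb_KD and -0.02 in Ring1b_KD.

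The genes whose profiles over the 9 arrays were nearest to that of Tnfrsf9 (1460469_at), by the root-mean-square difference of log2 values after each gene was centred on its Control mean, were St8sia4 (0.82), Crem (1.03), Dgat1 (1.05), Pik3cg (1.08) and Btn1a1 (1.08). Compared were only the 8828 named genes whose mean over the 9 arrays, Ring1b_KD included, was at or above the median gene. Dimmer genes were left out. The median over those compared was 2.10, and the measure takes in the Ring1b_KD values that chose Tnfrsf9. St8sia4, a polysialyltransferase, had differences from Control of 1.19 in CBFb_KD and 2.35 in Ring1b_KD. Crem, a cAMP-responsive transcription factor, had 1.61 and 2.19, and Dgat1, a triglyceride-forming enzyme, 1.17 and 1.87. Pik3cg, the catalytic gamma subunit of PI3-kinase, had 0.33 and 1.73, and Btn1a1, a butyrophilin, -0.01 and 1.83. All 5 lay below Tnfrsf9 in their Ring1b_KD difference, as any gene must, since Tnfrsf9 was chosen for the highest rise there. These values are a description without a test.

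**Figure D4:**
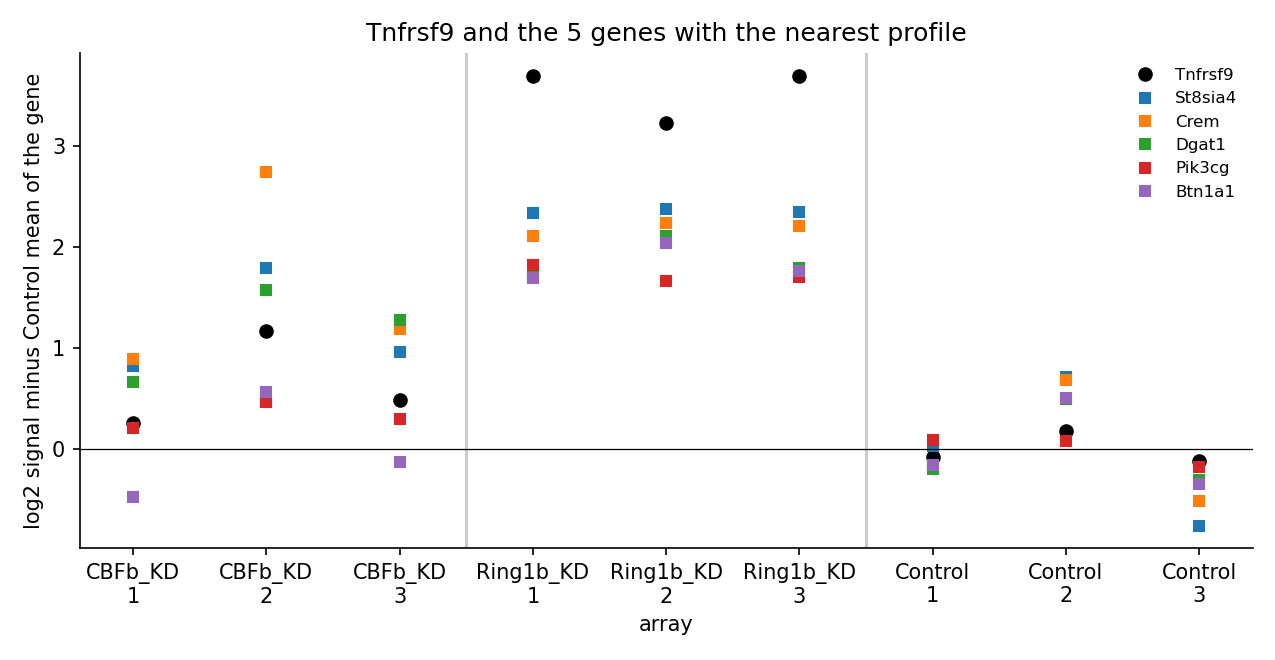
Log2 signal minus the gene's own Control mean (vertical axis) in each of the 9 arrays (horizontal axis) for Tnfrsf9 (1460469_at, circles) and 5 other genes (squares). These had the nearest profiles among the named genes at or above the median gene in mean signal. Tnfrsf9, chosen for its rise in Ring1b_KD, lies above all 5 in every Ring1b_KD array, and Crem, St8sia4 and Dgat1 lie above it in every CBFb_KD array.

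Genes beside Tnfrsf9 on chromosome 4, in the order of the RefSeq annotation, were not called with it. The 3 nearest measured genes before it, Slc45a1, Errfi1 and Park7, had log2 differences between Ring1b_KD and Control of 0.23, -0.01 and 0.11. The 3 after it, Per3, Uts2 and Gm38529, had -0.31, 0.14 and -0.17. None of the 6 passed the limma test in Ring1b_KD (adjusted p = 0.0533 to 0.98) or in CBFb_KD (adjusted p = 0.23 to 0.941), with the lowest Ring1b_KD value that of Per3, a clock gene.

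Of the other 22 listed receptors of the family 21 were measured. In CBFb_KD 1 rose, Tnfrsf13c, the BAFF receptor (0.41, limma adjusted p = 0.0148), a call lost without Control array 1 (limma adjusted p = 0.0603), where 12.8% of all genes were called, 6.62% higher and 6.19% lower. In Ring1b_KD limma called 0 of 21 (10.1% of all genes, 4.54% higher and 5.54% lower), with 3 at an unadjusted p under 0.05. The log2 differences of all 21 had a median of 0.03 in CBFb_KD and -0.01 in Ring1b_KD, against -0.01 and 0.01 over all genes. The differences of these receptors in Ring1b_KD ran from -0.32 to 0.25.

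Among other ligands 13 of 17 were measured, and 3 rose in CBFb_KD and 1 in Ring1b_KD, with none lower, where 12.8% and 10.1% of all genes were called. Tnfsf14, the ligand LIGHT, averaged 10.99 ± 0.45 (SD, n = 3) in CBFb_KD, 8.98 ± 0.49 in Ring1b_KD and 9.35 ± 0.17 in Control. It rose in CBFb_KD by 1.64 (log2, SE 0.24, limma adjusted p = 0.00105), and its second probe set by 1.37 (limma adjusted p = 0.00194), while the Ring1b_KD difference was -0.37 (limma adjusted p = 0.389). Between the knockdowns Tnfsf14 differed by 2.01 (limma adjusted p = 0.000191). Tnfsf4, the ligand of OX40, rose in CBFb_KD (0.67, limma adjusted p = 0.00839) and in Ring1b_KD (0.52, limma adjusted p = 0.0376). The Ring1b_KD call of Tnfsf4 held under the other scalings but not in fits omitting CBFb_KD array 3, Ring1b_KD array 2 or 3 or any 1 of the Control arrays. Ltb, which encodes lymphotoxin beta, rose in CBFb_KD (0.53, limma adjusted p = 0.029), and was not called when CBFb_KD array 1 or 2, or any 1 of the Control arrays, was omitted. Tnf itself had differences of 0.03 and 0.10 and was not called (limma adjusted p = 0.918 and 0.618).

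Of 25 measured genes that act just below the receptors, 4 rose and 1 fell in CBFb_KD, and 3 rose and 1 fell in Ring1b_KD, where 12.8% and 10.1% of all genes were called. Cflar, which encodes the caspase-8 inhibitor c-FLIP, rose 2.35-fold in CBFb_KD (1.23, SE 0.14, limma adjusted p = 0.000249), and all 5 of its probe sets were called higher. In Ring1b_KD Cflar had 0.48 on the same probe set (limma adjusted p = 0.0521, or 0.0144 under a replicate block), while 2 of its other probe sets were called higher (0.52 and 0.57, limma adjusted p = 0.0232 and 0.006). Between the knockdowns the brightest differed by 0.75 (limma adjusted p = 0.0038). Birc3, a cIAP ligase that TRAF2 carries, rose in CBFb_KD (0.64, limma adjusted p = 0.00928) and in Ring1b_KD (0.59, limma adjusted p = 0.0186). On its second, dimmer probe set Birc3 was not called in CBFb_KD (0.15, limma adjusted p = 0.496) or in Ring1b_KD (0.16, limma adjusted p = 0.394). Its paralog Birc2 was called in Ring1b_KD (0.46, limma adjusted p = 0.0357) and stood at 0.40 in CBFb_KD (limma adjusted p = 0.059), where it passed under a replicate block (limma adjusted p = 0.0133). Tnip1, a partner of the deubiquitinase A20, rose in CBFb_KD (0.52, limma adjusted p = 0.00391), where Rbck1, a subunit of the linear ubiquitin ligase, fell (-0.41, limma adjusted p = 0.023). The Rbck1 call held in 4 of the 9 fits that left out 1 array. Rbck1 stood at -0.205 in Ring1b_KD (limma adjusted p = 0.252) and was called lower there with median centring (-0.39, limma adjusted p = 0.0259). Sharpin, another subunit of the linear ubiquitin ligase, rose in Ring1b_KD (0.27, limma adjusted p = 0.0394) and stood at 0.23 in CBFb_KD (limma adjusted p = 0.0714). In CBFb_KD Sharpin passed with low values filtered (limma adjusted p = 0.0441) or 1 probe set per gene (0.0489). The Ring1b_KD calls of Sharpin, Birc2 and Birc3 were lost as deposited (0.17, 0.38 and 0.49, limma adjusted p = 0.158, 0.0872 and 0.0595) and with median centring (0.09, 0.29 and 0.41, limma adjusted p = 0.567, 0.224 and 0.143). The count in CBFb_KD was 3 without CBFb_KD array 2 or Control array 1 and 2 without Control array 3. That in Ring1b_KD, 4 with all arrays, was 1 without CBFb_KD array 3, 0, 2 and 1 without Ring1b_KD arrays 1, 2 and 3, and 0, 2 and 0 without Control arrays 1, 2 and 3.

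Cyld, a deubiquitinase that restrains NF-kB signalling, was called in opposite directions by its brightest probe set. It averaged 9.71 ± 0.02 (SD, n = 3) in CBFb_KD, 9.16 ± 0.07 in Ring1b_KD and 9.44 ± 0.02 in Control. Cyld thus fell in Ring1b_KD (-0.28, limma adjusted p = 0.0384) and rose in CBFb_KD (0.27, limma adjusted p = 0.0347), with 0.55 between the knockdowns (limma adjusted p = 0.000444). Another Cyld probe set fell by 0.83 in Ring1b_KD (limma adjusted p = 0.00475), whereas the mean of all its probe sets gave -0.28 in Ring1b_KD (limma adjusted p = 0.0506) and 0.08 in CBFb_KD (limma adjusted p = 0.662). On the brightest probe set, the CBFb_KD call of Cyld was lost with median centring and when any 1 CBFb_KD or Control array was omitted. Its Ring1b_KD call was lost when CBFb_KD array 3, Ring1b_KD array 1 or 3 or any 1 Control array was omitted.

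Of 14 measured NF-kB subunits, inhibitors and kinases, 1 rose in CBFb_KD and 2 in Ring1b_KD by the brightest probe set of each gene, where 12.8% and 10.1% of all genes were called. Nfkbia, the inhibitor IκBα and a feedback target of NF-kB, rose in CBFb_KD by 0.56 (SE 0.07, limma adjusted p = 0.000651) and stood at 0.06 in Ring1b_KD (limma adjusted p = 0.668). Its 5 probe sets disagreed in Ring1b_KD, where 1 was called higher (0.50, limma adjusted p = 0.0184) and another stood at 0.38 (limma adjusted p = 0.0555). Nfkbiz, an atypical nuclear member of the IκB family named after its values were seen, was not called by its brightest probe set (0.37 in CBFb_KD and 0.25 in Ring1b_KD). On another of its probe sets, however, Nfkbiz was called higher in CBFb_KD (1.16, limma adjusted p = 0.00272) and in Ring1b_KD (1.17, limma adjusted p = 0.00376). Tbk1 (0.39, limma adjusted p = 0.0256) and Nfkbib (0.30, limma adjusted p = 0.0416) rose in Ring1b_KD, and neither passed as deposited or with median centring. The Ring1b_KD count was 1 when CBFb_KD array 2 or 3, Ring1b_KD array 1 or 2 or Control array 1 or 2 was omitted, and 0 without Ring1b_KD array 3 or Control array 3. Between the knockdowns 7 of the 14 were called, where 16.5% of all genes were (8.92% higher and 7.54% lower), 4 higher and 3 lower in CBFb_KD. Named after their values were seen, the higher ones were Nfkbie (0.53), Nfkbia (0.49), Relb (0.49) and Ikbke (0.48), and the lower ones Nfkbib (-0.44), Tbk1 (-0.33) and Rela (-0.24). With median centring, without CBFb_KD array 3 or without Ring1b_KD array 1 the count was 4.

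Of 32 textbook NF-kB targets 7 rose and 0 fell in CBFb_KD, and 3 rose and 0 fell in Ring1b_KD, where 12.8% and 10.1% of all genes were called. Bcl2l1, the survival gene of BCL-XL, rose in CBFb_KD by 0.86 (limma adjusted p = 0.000317), and Ccl5, a chemokine, by 0.53 (limma adjusted p = 0.00559). In Ring1b_KD their differences were 0.06 and 0.05. Irf1, an interferon regulatory factor (0.39, limma adjusted p = 0.0124), Birc3 and Ier3 (0.47, limma adjusted p = 0.0304) rose in Ring1b_KD. All of these were called higher in CBFb_KD too, Irf1 by 0.34 and Ier3 by 0.52 (limma adjusted p = 0.0202 and 0.0144). Those CBFb_KD calls of Irf1 and Ier3 were lost without CBFb_KD array 2 or 3 or Control array 1 or 3. Between the knockdowns Irf1 and Ier3 differed by -0.05 and 0.05 (limma adjusted p = 0.746 and 0.822). All 3 Ring1b_KD calls were lost as deposited (limma adjusted p = 0.0577 for Irf1, 0.0595 for Birc3 and 0.0555 for Ier3) and with median centring (0.225, 0.143 and 0.153), where Irf1 stood at 0.20. The count of targets in CBFb_KD was 3 without Control array 3. That in Ring1b_KD was 1 without Ring1b_KD array 1 or 2 or Control array 1, and 0 without Control array 3.

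Over the 100 measured genes of these lists together, 14 rose and 1 fell in CBFb_KD, 15% where 12.8% of all genes were called. In Ring1b_KD 8 rose and 1 fell, 9% where 10.1% of all genes were called, and between the knockdowns 18% were called where 16.5% of all genes were. Taken in either direction, these shares are near the background. By direction, the 14 higher and 1 lower in CBFb_KD stand beside 6.62% higher and 6.19% lower over all genes. That split was 14 and 1 as deposited and 12 and 1 with median centring. It was not tested, and the lists were chosen with earlier results of these data known. The direction in Ring1b_KD depended on the scaling, with 1 higher and 3 lower as deposited and 1 higher and 5 lower with median centring. Over all probe sets the Ring1b_KD calls were 44.4% higher after quantile normalization, 37.7% as deposited and 15.1% with median centring. Those between the knockdowns were 52.8%, 59.2% and 81.6% higher in CBFb_KD. The CBFb_KD count was 10 without CBFb_KD array 2, 9 without Control array 1 and 8 without Control array 3. The Ring1b_KD count was 4 without CBFb_KD array 3, 3, 4 and 5 without Ring1b_KD arrays 1, 2 and 3, and 2, 5 and 0 without Control arrays 1, 2 and 3. The calls named by smallest adjusted p, up to 4 per list and knockdown, were followed through the 9 fits that left out 1 array. Of these, 7 of 11 in CBFb_KD and 0 of 9 in Ring1b_KD held in all 9 fits. The 7 were Tnfsf14, Tnfsf4, Cflar, Tnip1, Nfkbia, Bcl2l1 and Ccl5. The CBFb_KD calls of Cyld, Irf1 and Ier3 are not among the 11, and each was lost in some of these fits.

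**Figure D5:**
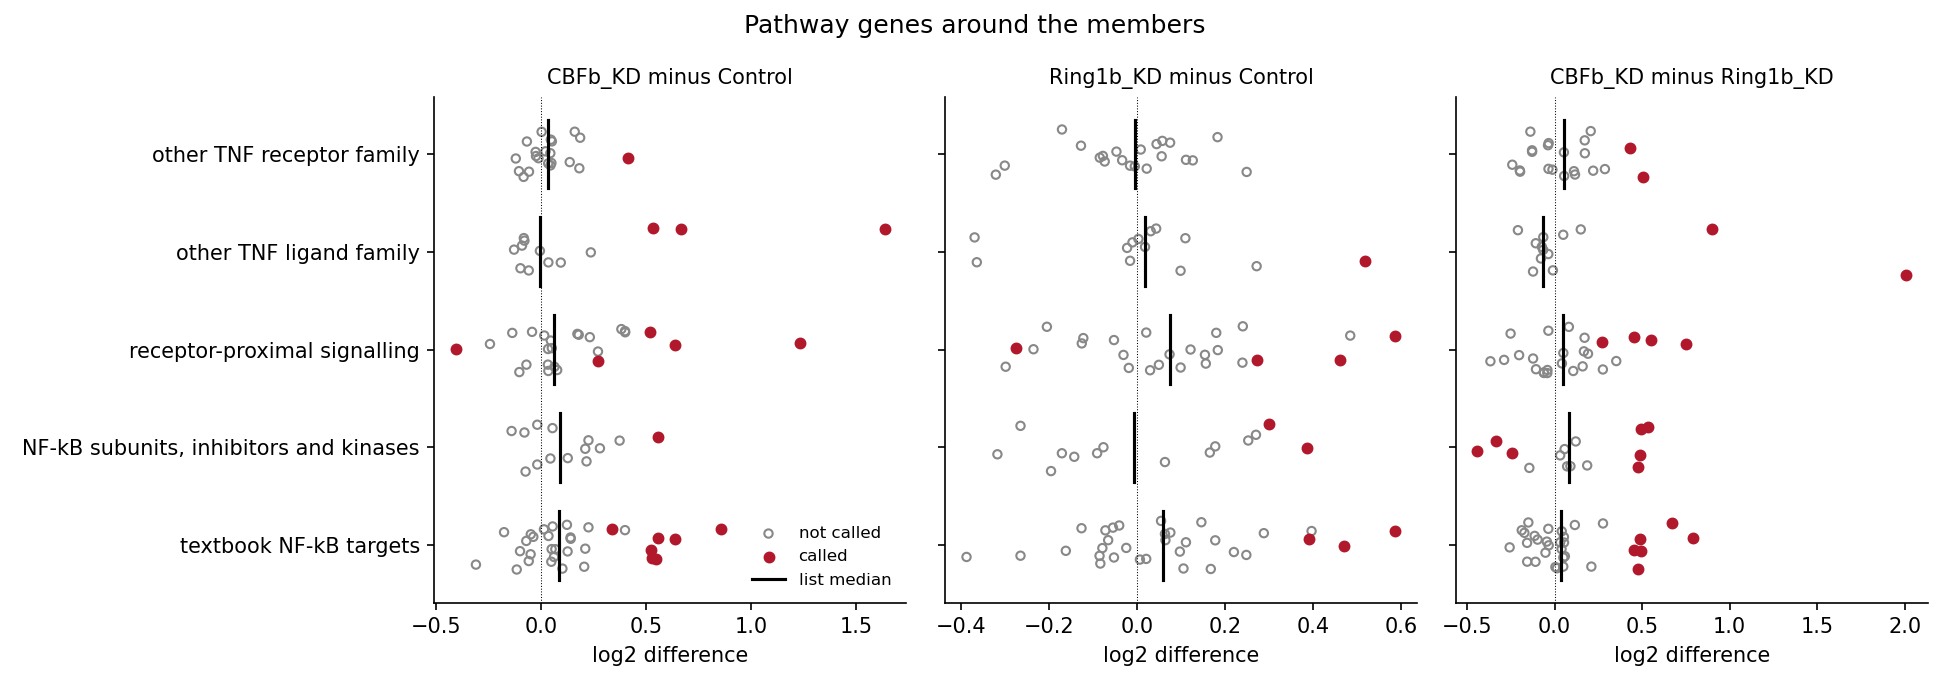
Log2 difference (horizontal axes, with a scale for each panel) of the measured genes of 5 pathway lists in CBFb_KD minus Control, Ring1b_KD minus Control and CBFb_KD minus Ring1b_KD. Each point is a gene by its brightest probe set, filled where limma called it at an adjusted p under 0.05, and the vertical stroke is the list's median. Tnfsf14 at 1.64 and Cflar at 1.23 lie farthest out in CBFb_KD, and the highest of these points in Ring1b_KD is Birc3 at 0.59.

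Since 4-1BB, OX40 and GITR are known from lymphocytes and mast cells among other cells, markers of such cells were read beside them. Limma called 10.1% of all genes in Ring1b_KD and 12.8% in CBFb_KD, the shares beside which the marker counts here stand. Of 12 measured T and NK cell markers limma called 1 higher in Ring1b_KD, Zap70 (0.50, adjusted p = 0.0295), and 0 in CBFb_KD. The CD3 chains Cd3e, Cd3d and Cd3g had differences of 0.12, 0.06 and 0.12 in Ring1b_KD and were not called. The summed linear signal of this list was 1701 to 1973 in CBFb_KD, 2005 to 2122 in Ring1b_KD and 1626 to 1795 in Control. Of 7 mast cell markers 2 rose and 1 fell in Ring1b_KD, namely Fcer1a (1.61), Hdc (0.99) and Ms4a2 (-1.49), and in CBFb_KD Hdc rose (1.11) and Ms4a2 fell (-1.92). Their summed signal was 2424 to 2960 in CBFb_KD, 3380 to 3874 in Ring1b_KD and 2158 to 3173 in Control. No B cell or monocyte, macrophage and dendritic cell marker was called in either knockdown, of 4 and 7 measured, and their sums overlapped between all groups. Bright genes weigh most in a linear sum, and the brightest were Zap70 among the T and NK cell markers and Cpa3 among those of mast cells. Cpa3 was not called in Ring1b_KD (0.61, limma adjusted p = 0.0961). Fcer1a, the IgE receptor alpha chain, and the sums of the T and NK cell and mast cell lists were highest in Ring1b_KD. In contrast, Ms4a2 was lower there than in Control and the CD3 chains were not called. The part of these markers in the Tnfrsf9 difference was not tested.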

How the data were processed

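RNA of 9 samples was hybridised to one-colour short-oligonucleotide arrays from biotin-labelled, oligo-dT-primed RNA, per the labels' protocols. The deposited values are log2 signals, as judged from their range of 3.227 to 15.35. How they were summarised and normalized is not given in the sources used here. For this report the 64 control probe sets were left out and the other 45037 quantile normalized. Group means were fitted to all 9 arrays with limma 3.58.1 (R 4.3.3; lmFit, eBayes with trend), and two-sided p-values adjusted by Benjamini-Hochberg over all 45037 probe sets and called under 0.05, after a check on simulated data. A table of platform annotation gave 34945 probe sets 1 symbol and 932 several, and 9160 were not listed. The 34741 matched by Entrez identifier changed 0 symbols. List genes stood by their probe set with the highest mean, which gave 18193 genes. No other probe set's level was set against a member's. Members and lists were chosen with earlier results of these data known. Named are all members, up to 4 called genes per list and knockdown by smallest adjusted p, the 5 nearest profiles, the 3 neighbours on either side of Tnfrsf9, and Cbfb and Rnf2. Between CBFb_KD and Control every same-numbered pair of arrays had a correlation of deviations over 0.1 (0.121, 0.281 and 0.137). However, CBFb_KD array 1 stood at 0.126 with Control array 3. Between the other groups not every same-numbered pair was over 0.1. The main fit carried no pairing. The planned test of Tnfrsf9 in CBFb_KD is given as a description. Sequences are from RefSeq, GRCm38.p6. With 3 arrays a group an exact permutation test cannot go below p = 0.1, so single values were tested only in the fit. Alternatives were 2 other scalings, robust or untrended variance, a filter at the median probe set, 1 probe set or the mean per gene, the replicate number as a block, and each array left out.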

Additional observations from a re-analysis of the deposited data

How the results depend on the processing

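With 1 array left out, the member calls ran from 1 to 3 in CBFb_KD against Control (2 with all arrays) and from 2 to 4 between the knockdowns (3 with all), and the Tnfrsf9 difference in Ring1b_KD from 3.46 to 3.69. In CBFb_KD against Control only Tnfrsf9 probe sets gained or lost a call, so that range is a description. Outside Tnfrsf9 the only call there was Tnfsf9 in every such fit. Pathway gene calls ran from 8 to 15 in CBFb_KD (15), 0 to 10 in Ring1b_KD (9) and 13 to 17 between the knockdowns (18). A robust variance called 1 member in CBFb_KD. In Ring1b_KD 4 pathway genes were called as deposited and 14 under a replicate block. Same-numbered samples had correlations of deviations from -0.145 to 0.281, over 0.1 in 4 of 9 pairs, and 8 of 9 samples correlated best with their own number. The block gave 2 member calls in CBFb_KD and 4 between the knockdowns, where it added Tnfrsf1a (limma adjusted p = 0.0482). Among the named pathway genes it added Birc2 in CBFb_KD, Cflar in Ring1b_KD and Tnip1 between the knockdowns (limma adjusted p = 0.0133, 0.0144 and 0.0323). By list, receptor-proximal calls in CBFb_KD were 8 (5) with low values filtered or 1 probe set per gene, and between the knockdowns 8 (4) with median centring. NF-kB regulators numbered 3 (1) in CBFb_KD when all its probe sets were averaged, and in Ring1b_KD 0 as deposited and 1 (2) with median centring. NF-kB targets in Ring1b_KD numbered 0, 1 and 5 (3) as deposited, with median centring and with the block, and other receptors 1 (0) with the block. Of 1605 single differences recomputed, 1454 kept their side of the threshold or moved less than the replicate spread, 116 lost a call, 27 gained one, 8 moved further and 0 called ones reversed. With low values filtered, the dimmest probe sets of Tnfrsf9, Tnfrsf1b and Traf1 were not tested. The causes were not tested. Dim signal limits what those probe sets can show.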
